A study of Mus musculus with 4 samples.

Results

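The regions described here are 4 stretches of the mouse genome listed as KRAB zinc finger gene clusters, 3 of which hold genes with a zinc finger symbol in the annotation used. Their windows are defined by position, as all windows of a replication profile that start at 174800001 to 178000001 on chromosome 2, 145000001 to 148000001 on chromosome 4, 19500001 to 24500001 on chromosome 12 and 62000001 to 68000001 on chromosome 13 (GRCm38). They hold 692 of the 109033 windows of the table, namely 129, 121, 201 and 241 windows in that order. The profile was made by TrAEL-seq, a method that sequences DNA 3′ ends, in mouse embryonic stem cells labelled 129S6/SvEvTac. WT cells and cells without Snf2h, an ATPase that slides nucleosomes in ISWI remodelling complexes, were each cultured in duplicate, and there are 2 libraries per genotype. All were grown in serum with LIF on gelatin-coated plates. The labels state neither how the knockout was made nor whether it is a single clone. The labels do not say that the duplicates came from separate thaws or clones, so p-values measure only the spread between these libraries.

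KRAB zinc finger proteins bind DNA through arrays of C2H2 fingers and recruit the corepressor TRIM28 through their KRAB domain. In embryonic stem cells they direct H3K9 methylation to retroelements, and many of their own genes carry that mark. The genes multiply by tandem duplication, which leaves neighbouring copies of very similar sequence. A replication fork that travels towards higher coordinates leaves its leading and lagging strands on opposite sides from a fork that travels the other way. The balance of 3′ ends between strands therefore changes along the genome where forks diverge or converge.

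Gene content was checked against the RefSeq annotation of GRCm38.p6. The ranges overlap 177 protein-coding genes, of which 55 (31.1%) have a zinc finger symbol (Zfp, Zkscan or Zscan, or Rex2), against 2.03% of 20665 autosomal protein-coding genes. There are 29 such genes in the range on chromosome 13, 17 on chromosome 4 and 9 on chromosome 2. The range on chromosome 12 has none. Of its 35 protein-coding genes, 26 have only a predicted name (Gm or LOC), and the others include Adam17, which encodes a membrane sheddase, and the transcription factor genes Grhl1 and Taf1b. The annotation used here therefore gives no support by name for a zinc finger cluster on chromosome 12, and that stretch is called the range on chromosome 12. The symbol rule also leaves out Rsl1 on chromosome 13, which encodes a KRAB zinc finger repressor of liver genes, and Rslcan18, named as a candidate for such a regulator. Pseudogenes number 188, more than the protein-coding genes.

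The likeness of the copies is shown by their promoters (300 bases from RefSeq, GRCm38.p6, 5′ to 3′ on the strand of the gene). For each range with zinc finger genes, the pair of genes with zinc finger symbols whose listed promoters share most 30-base words was taken. Capitals mark bases that lie in a 30-base word found in both promoters of the pair, on either strand. On chromosome 2, the promoters of Zfp966 (chr2:175931051-175931350, minus strand) and Zfp967 (chr2:176520754-176521053, plus strand) are identical at 300 of 300 bases and share all 271 words, so it is printed once. On chromosome 4, a promoter of Zfp600 (chr4:146156577-146156876, plus strand) and a promoter of Rex2 (chr4:147021600-147021899, plus strand) match at 296 of 300 positions and share 256 words. On chromosome 13, Zfp729a (chr13:67637732-67638031, minus strand) and Zfp738 (chr13:67683463-67683762, minus strand) share only 19 words.
Zfp966 and Zfp967: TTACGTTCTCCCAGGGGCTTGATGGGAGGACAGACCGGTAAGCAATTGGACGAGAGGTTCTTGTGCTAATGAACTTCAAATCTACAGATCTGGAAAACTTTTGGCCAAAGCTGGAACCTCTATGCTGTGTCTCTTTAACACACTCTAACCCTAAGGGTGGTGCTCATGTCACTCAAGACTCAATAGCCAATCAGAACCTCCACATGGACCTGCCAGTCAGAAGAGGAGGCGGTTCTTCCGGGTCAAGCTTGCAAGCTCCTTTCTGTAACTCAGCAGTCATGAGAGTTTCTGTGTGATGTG
Zfp600: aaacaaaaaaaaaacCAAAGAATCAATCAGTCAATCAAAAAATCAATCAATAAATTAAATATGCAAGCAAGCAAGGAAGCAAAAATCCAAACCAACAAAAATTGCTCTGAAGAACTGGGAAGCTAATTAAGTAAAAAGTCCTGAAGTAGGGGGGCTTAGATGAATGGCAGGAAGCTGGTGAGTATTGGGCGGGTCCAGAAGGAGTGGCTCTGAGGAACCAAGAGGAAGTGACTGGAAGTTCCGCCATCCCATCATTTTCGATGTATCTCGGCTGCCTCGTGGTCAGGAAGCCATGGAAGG
Rex2: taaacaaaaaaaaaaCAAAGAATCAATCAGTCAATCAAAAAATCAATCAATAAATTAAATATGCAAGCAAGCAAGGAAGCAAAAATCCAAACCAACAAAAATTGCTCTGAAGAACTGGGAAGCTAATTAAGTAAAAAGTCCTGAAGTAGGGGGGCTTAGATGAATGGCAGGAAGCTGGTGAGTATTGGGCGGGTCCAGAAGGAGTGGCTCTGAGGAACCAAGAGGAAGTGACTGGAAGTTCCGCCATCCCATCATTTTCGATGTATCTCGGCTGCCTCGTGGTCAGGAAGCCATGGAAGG
Zfp729a: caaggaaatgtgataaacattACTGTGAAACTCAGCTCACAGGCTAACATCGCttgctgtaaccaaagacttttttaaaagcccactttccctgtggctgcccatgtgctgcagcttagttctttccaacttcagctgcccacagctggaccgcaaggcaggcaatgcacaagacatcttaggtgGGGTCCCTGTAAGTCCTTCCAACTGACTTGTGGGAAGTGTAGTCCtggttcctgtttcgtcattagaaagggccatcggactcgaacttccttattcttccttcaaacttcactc
Zfp738: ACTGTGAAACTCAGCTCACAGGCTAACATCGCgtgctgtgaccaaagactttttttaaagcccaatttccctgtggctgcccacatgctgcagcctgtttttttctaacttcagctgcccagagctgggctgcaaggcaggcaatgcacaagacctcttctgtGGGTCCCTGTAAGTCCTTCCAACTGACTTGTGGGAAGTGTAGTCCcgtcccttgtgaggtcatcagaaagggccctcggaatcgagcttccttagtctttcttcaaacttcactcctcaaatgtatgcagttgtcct

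Coverage differed between these genes. All 5 windows over Zfp966 and all 5 over Zfp967 had no value in any of the 4 libraries. Zfp600 had no value in 0 and 1 of its 5 windows in WT replicates 1 and 2 and in 1 and 2 in KO replicates 1 and 2. Rex2 had no value in 1 of its 8 windows in WT replicate 1 and in 2 of 8 in each other library. Every window over Zfp729a and Zfp738 had a value in all libraries. Over all promoters listed in the ranges, 135 of 221 (61.1%) held a 30-base word that also occurs in the promoter of another gene, against 21.8% of 25527 promoters elsewhere on the autosomes. In 75 promoters of the ranges (33.9%), at least 50% of the words were shared, against 10.7% elsewhere. Overlapping promoters of adjacent genes, such as Miip and Fv1 (78.2% of words each), were not set apart from duplicated copies in these counts. Windows over those 75 promoters, counted once per promoter, had no value in 35.2% and 37.5% of cases in WT replicates 1 and 2 and in 46.8% and 50.9% in KO replicates 1 and 2. Over the 86 promoters without a shared word, the values were 6.06% and 6.36% for WT, and 11.5% and 11.8% for KO. Of the 75 promoters, 29 lie on chromosome 2, many of them in the longest gap of that range, which is thus counted many times. The part of sequence likeness in the missing values was not tested.

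Missing values were counted first. In all 692 windows, 184 were empty in WT replicate 1, 189 in WT replicate 2, 253 in KO replicate 1 and 268 in KO replicate 2. Both KO counts thus exceeded both WT counts. The genotype means were 186.5 ± 3.54 and 260.5 ± 10.6 windows (SD, n = 2 each), a difference of 74 windows against a pooled replicate SD of 7.91 (exact two-sided permutation p = 0.333). That is the smallest p that 2 against 2 libraries allow, so no comparison of genotypes by this test can reach 0.05. Values in all 4 libraries were present in 406 windows (58.7%), and 171 windows (24.7%) had none in any library.

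The excess in KO was unevenly spread over the ranges. On chromosome 12, 64 and 60 of 201 windows had no value in WT, against 108 in each KO library, a ratio of 1.74. On chromosome 13, 20 and 29 of 241 windows were missing in WT and 36 and 43 in KO, a ratio of 1.61. The range on chromosome 2 lacked most windows in every library, with 75 in each WT library and 81 and 86 of 129 in KO, a ratio of 1.11. On chromosome 4, 25 of 121 windows were missing in each WT library and 28 and 31 in KO, a ratio of 1.18. In each of the 4 ranges both KO counts exceeded both WT counts. Without the range on chromosome 12, the difference over the other ranges was 28 windows instead of 74.

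**Figure D1:**
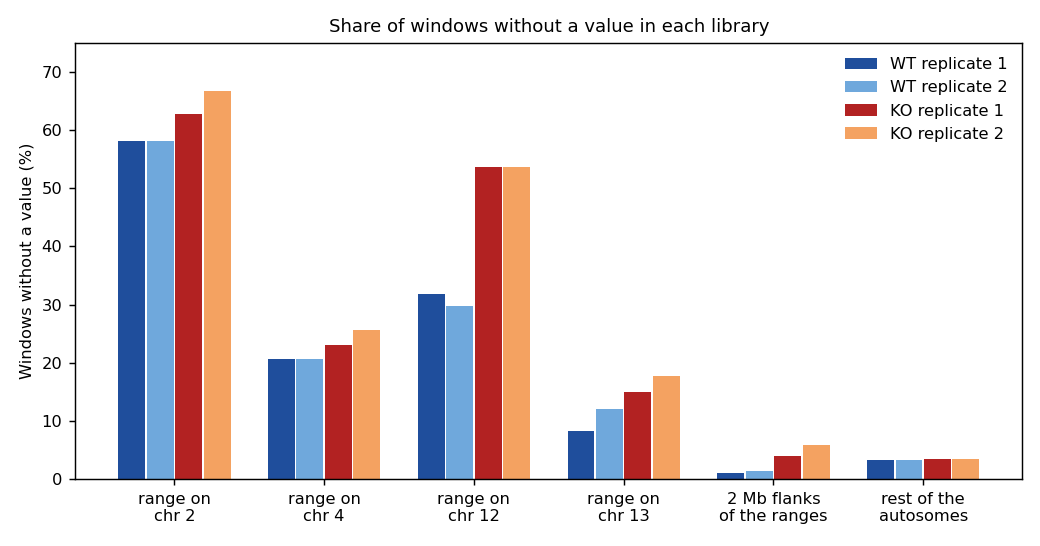
Bars give the percentage of windows without a value in each library, for the 4 ranges, the 2 Mb on either side of them together and the rest of the autosomes. KO bars stand above WT bars in every range, with the widest gap on chromosome 12 (31.8% and 29.9% in WT, 53.7% in both KO libraries).

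The same count was made outside the ranges. In the rest of the autosomes, 3.28% and 3.31% of 97828 windows had no value in WT and 3.48% and 3.58% in KO, a ratio of KO to WT of 1.07. Many of these lie before the first value at the start of a chromosome, and without those the ratio was 1.24. The ranges exceeded the rest of the autosomes by 23.3 and 24.0 percentage points in WT and by 33.1 and 35.1 in KO (mean 28.9 ± 6.10, SD, n = 4 libraries). This excess was positive in 4 of 4 libraries (exact two-sided sign-flip permutation p = 0.125, the smallest that 4 libraries allow). The excess itself was 10.5 percentage points larger in KO than in WT, against a pooled replicate SD of 1.09 (exact permutation p = 0.333). The ranges make up 0.702% of autosomal windows and hold 24.1% of the autosomal difference of 307 windows between genotypes. Only windows empty in some but not all libraries can add to that difference. Windows that lacked at least 1 value numbered 286 in the ranges and 3826 in the autosomes, and 171 and 3318 of these lacked all 4 values. The 2 Mb flanks of the ranges had 7 and 9 missing windows of 640 in WT and 26 and 38 in KO. Read depth is not in the table, and its part in the difference between genotypes was not tested.

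Windows were then sorted by which libraries lacked them. Across the autosomes, 0.146% of 98520 windows had no value in both KO libraries but a value in both WT libraries. In the ranges 37 windows did so, 28 on chromosome 12, 5 on chromosome 2, 4 on chromosome 13 and none (0) on chromosome 4. These are 7.55% of the 490 windows measured in both WT libraries, against 0.113% in the rest of the autosomes. Windows that lacked a value in at least 1 library were also commoner in the ranges, at 41.3% against 3.62% in the rest. Only those empty in some but not all libraries can show this pattern. In the ranges 171 of 286 such windows lacked all 4 values, and in the rest 3147 of 3540. The reverse pattern, missing in both WT and present in both KO libraries, occurred in 0 windows of the ranges and in 0 windows of the autosomes. WT values in the 37 windows were unsteady. The median absolute difference between WT replicates was 12.4 percentage points of polarity there, against 3.95 in the 406 windows with 4 values, and their signs agreed in 45.9% and 79.1%. In the rest of the autosomes, 107 such windows had a median WT difference of 14.3 points, against 3.35 points where all libraries had a value.

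**Figure D2:**
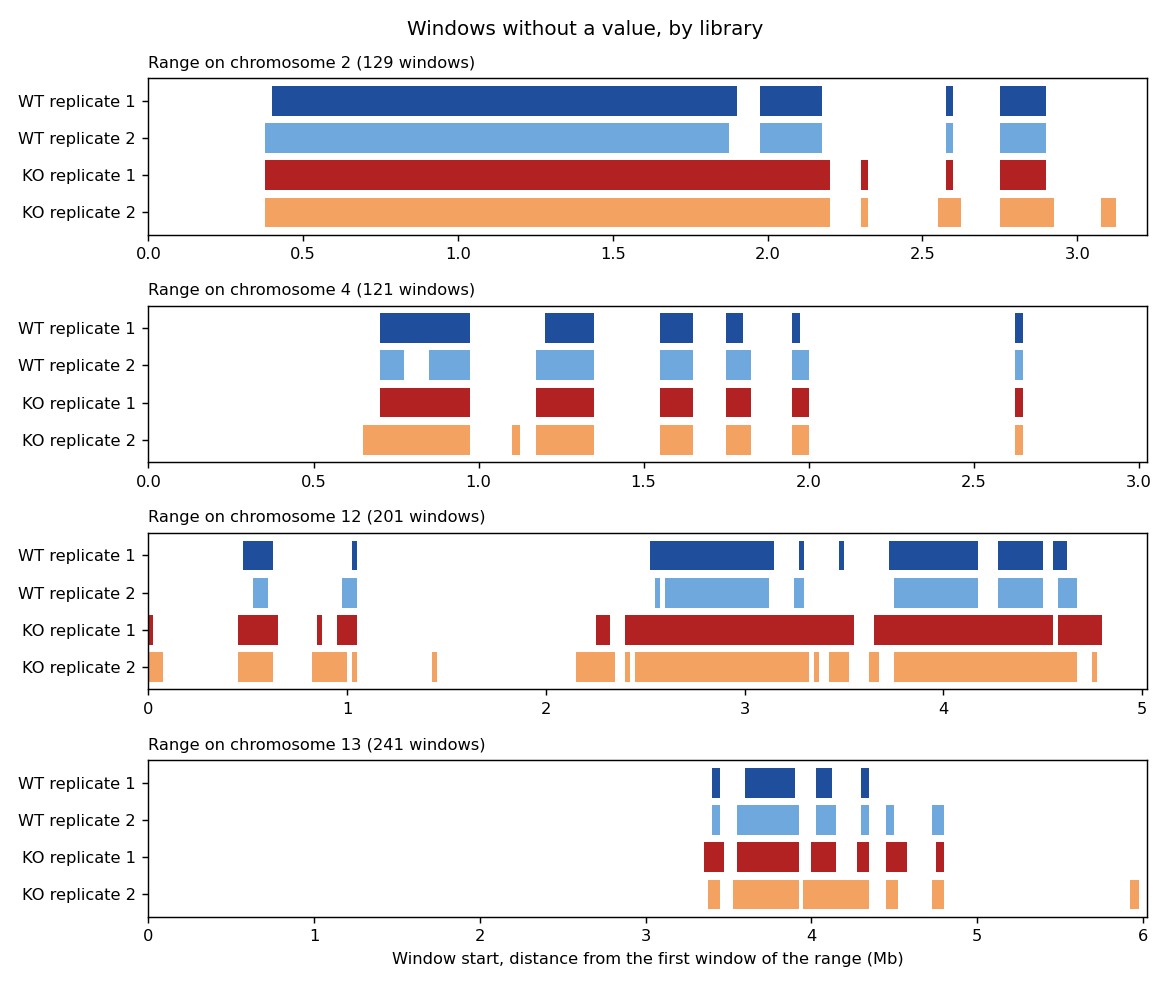
Coloured blocks mark windows without a value along each range, with 1 row per library and distance from the first window in Mb. The widest KO gaps beyond the WT gaps lie on chromosome 12, with 28 windows empty in both KO libraries and measured in both WT libraries, against 5 on chromosome 2 and 0 on chromosome 4.

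Gaps formed long stretches. The longest on chromosome 2 ran from 175175001 to 177075000 (73 windows), of which 67 had no value in any library. It covers Zfp965, Zfp966, Zfp967, Zfp968 and Zfp973, for which no window had a value in all libraries, and these are 5 of the 9 zinc finger genes of that range. Chromosome 4 had 7 shorter stretches, the longest from 145650001 to 146050000 (13 windows). On chromosome 12, stretches from 21900001 to 23125000 (46 windows) and 23125001 to 24375000 (47 windows) were broken by windows with a value in WT. The first of them lacked 27 and 24 windows in WT and 46 and 41 in KO, and the second lacked 30 in each WT library and 45 and 40 in KO. On chromosome 13, a pair of stretches of 16 windows each lay from 65525001 to 66000000 and from 65950001 to 66425000.

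Zinc finger genes themselves were not the least covered. Windows that overlap a zinc finger gene had no value in 20.7% ± 2.14 of 181 windows (SD, n = 4 libraries), against 36.4% ± 7.83 of the 511 other windows of the ranges. The difference was negative in 4 of 4 libraries (mean -15.7 percentage points; exact sign-flip permutation p = 0.125). The other windows include all 201 of chromosome 12, and without that range the difference was -11.9 percentage points. They also include windows over predicted genes, which are 22 of 32 coding genes on chromosome 2. Among these, Gm2007 and Gm14288 share 100% of their promoter words with other genes and had no value in any window. The split is thus one of symbols. The ranges did not all have this order. On chromosome 13, none (0%) of the 65 windows over zinc finger genes was missing in any library, against 11.4% to 24.4% of the other windows. On chromosome 4, 11.4% to 19.0% of windows over zinc finger genes were missing, against 31.0% to 38.1% of the 42 other windows. Of those, the 25 windows over other coding genes all had a value (0% missing). On chromosome 2 the order was opposite, with 64.9% to 75.7% missing over zinc finger genes and 54.3% to 63.0% elsewhere. All 29 zinc finger genes of chromosome 13 and 10 of 17 on chromosome 4 had a value in all libraries in each of their windows. The same was true of only 2 of 9 on chromosome 2, Zfp971 and Zfp931 at its end.

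Polarity was compared in windows with a value in all 4 libraries. It is the signed imbalance between strands in percentage points (written as points), bounded at -50 and 50, and the sources used here do not state which strand counts as positive. Tests used windows spaced 100 kb, which do not overlap. Of 176 such windows in the ranges, 105 had 4 values, 10 on chromosome 2, 23 on chromosome 4, 21 on chromosome 12 and 51 on chromosome 13. Mean polarity over the 105 was -0.314 and 0.241 points for the WT pair and 0.597 and -0.286 for the KO pair. The libraries of the genotypes overlapped, and the difference of 0.192 points was below the pooled replicate SD of 0.522 (exact permutation p = 0.667).

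The spread of polarity over these windows holds both the preference of forks for a direction and the noise of the measurement, which were not separated. Its SD was 13.02 and 12.4 points for the WT pair and 17.5 and 14.9 for the KO pair, higher in both KO libraries. The means were 12.7 ± 0.411 and 16.2 ± 1.86 points (SD, n = 2 each), and the difference of 3.48 points exceeded the pooled replicate SD of 1.35 (exact permutation p = 0.333). After each library was divided by its own autosomal SD, the difference was 0.0335 SD (exact permutation p = 0.667). The SD in the ranges was 0.889 and 0.969 times that of the rest of the autosomes in WT replicates 1 and 2 and 0.900 and 1.03 times in KO replicates 1 and 2. The difference from the rest was -0.898 points on average over the 4 libraries, but KO replicate 2 was higher (exact sign-flip permutation p = 0.25). Chromosome 13 had the largest gap between genotypes, with an SD of 11.9 and 11.7 points for the WT pair and 17.95 and 15.0 for the KO pair.

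**Figure D3:**
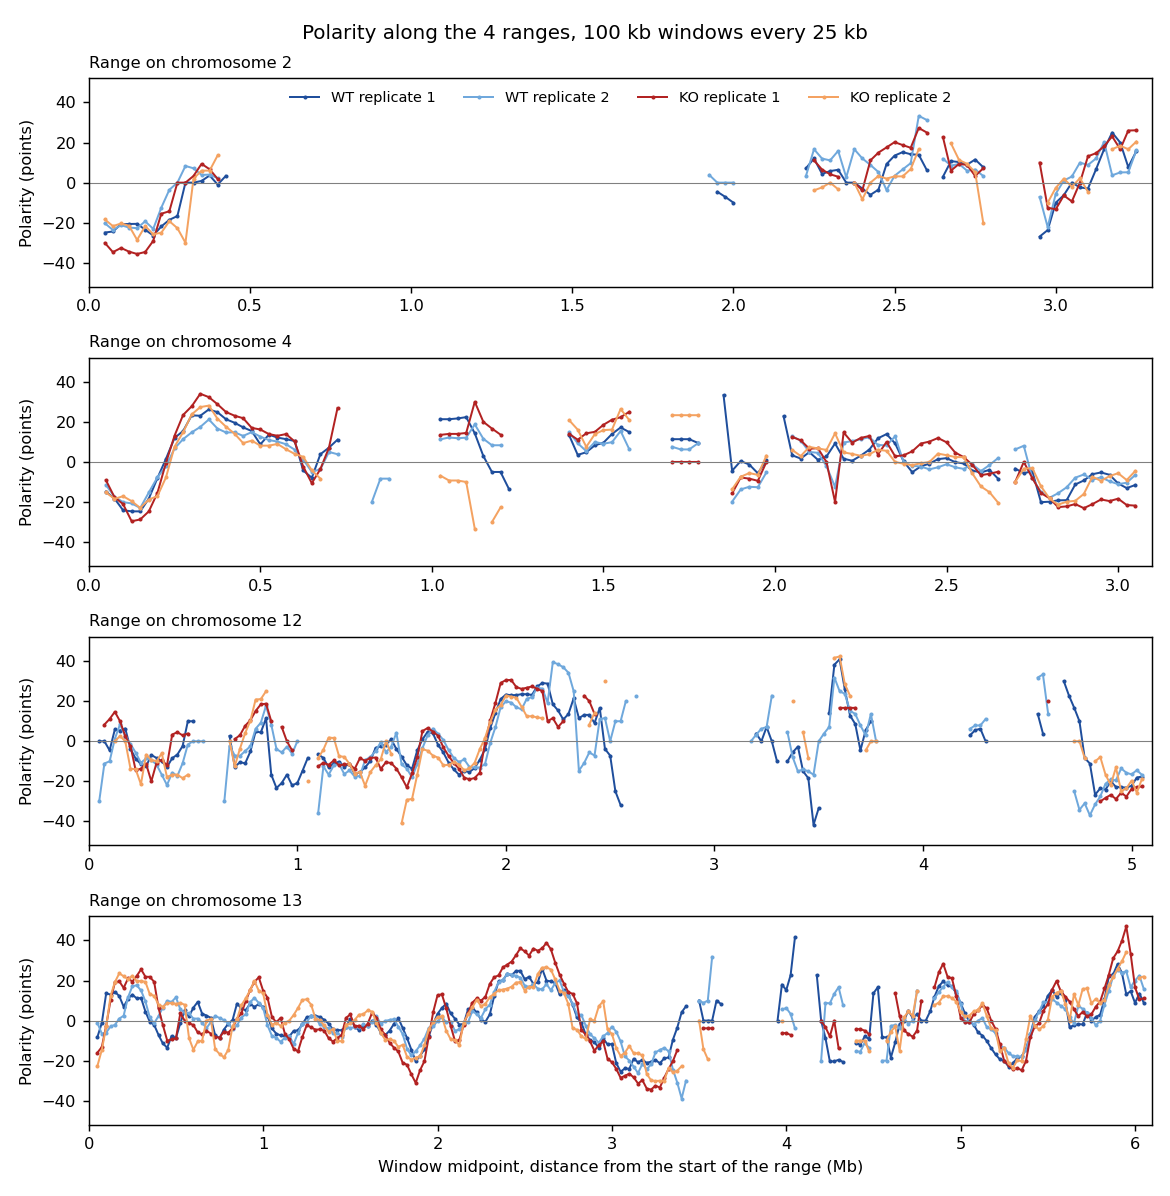
Polarity in points is drawn along each range for the 4 libraries, with gaps where a library has no value and distance from the start of the range in Mb. All 4 libraries had the same sign in 62.9% of the 105 windows spaced 100 kb, against 66.4% in the flanks and 74.4% in the rest of the autosomes, with the lowest share, 52.9%, on chromosome 13 and the highest, 76.2%, on chromosome 12.

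Single windows were then tested. In limma, with Benjamini-Hochberg adjustment over all 23672 autosomal windows, 0 of the 105 windows had an adjusted p under 0.05, where 0.0549% of all windows did. Unadjusted p-values under 0.05 were found for 17 windows (16.2%), against 12.2% of all windows. In KO 8 were higher (background 6.1%) and 9 lower (background 6.11%). Of the 17, 12 lay on chromosome 13 (23.5% of its 51 windows). The genotypes did not overlap in 47 windows (44.8%, against 44.7% of all windows). Both KO values were above in 26 (background 22.2%) and below in 21 (background 22.5%). Leaving out a KO library left the spread to be set by the WT pair and gave 13 calls without KO replicate 1 (12.4%, against 5.79% of all windows in that fit) and 16 without KO replicate 2 (15.2%, against 20.2%). The lone KO library is then assumed to vary like the WT libraries.

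The window with the largest separated difference on chromosome 13 lay at 67900001 to 68000000, past the last zinc finger gene of that range, and overlaps only the gene Gm7969. Polarity was 13.1 and 24.5 points for the WT pair and 47.0 and 34.2 for the KO pair, with both KO values above both WT values. KO exceeded WT by 21.8 points on average, with an SE of 5.23 (limma adjusted p = 0.137), and 1 of its 4 overlapping neighbours with values in all libraries was separated in the same direction. KO replicate 2 had no value in a pair of windows starting 25 and 50 kb further on. On chromosome 12, at 20200001 to 20300000 over Gm32719, polarity was -11.0 and -4.87 points for the WT pair and 7.75 and 4.10 for the KO pair. The sign was thus opposite in the genotypes, 13.9 points apart with an SE of 4.62 (limma adjusted p = 0.250), and 4 of 5 neighbours were separated likewise. A stretch of windows that lack a value in some library, from 19950001 to 20225000, overlaps this window, and the next such stretch starts at 20325001.

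On chromosome 4 the largest separated difference was at 147300001 to 147400000, over Zfp978 and Zfp988. Polarity was 9.26 and 12.8 points for the WT pair and 2.83 and 0 for the KO pair, lower in both KO libraries (difference -9.60 points, SE 4.54; limma adjusted p = 0.403). Only 1 of its 6 overlapping neighbours was separated in that direction. On chromosome 2 it was at 177000001 to 177100000, which holds no protein-coding gene, with 12.1 and 16.7 points for the WT pair and 11.1 and -3.85 for the KO pair (limma adjusted p = 0.406).

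Slope was measured as the step in polarity from a window to the next 100 kb on, in points per 100 kb. The ranges gave 89 steps with 4 values at both ends. For the WT pair the median absolute step was 8.78 and 7.80 points per 100 kb, and for the KO pair 10.0 and 10.2. Both KO medians exceeded both WT medians (means 8.29 ± 0.693 and 10.1 ± 0.130, SD, n = 2 each; exact permutation p = 0.333). Over 200 kb the difference was 0.808 instead of 1.80 points, and the libraries of the genotypes overlapped (exact permutation p = 0.667). Scaled by the autosomal SD of each library, the difference was 0.00355 SD (exact permutation p = 1). In the rest of the autosomes, the medians were 6.90 and 6.53 for WT, and 8.69 and 7.85 for KO. The ranges were steeper by 1.70 ± 0.506 points per 100 kb (SD, n = 4) in 4 of 4 libraries (exact sign-flip permutation p = 0.125). With windows that start 50 kb later, the difference from the rest was -0.148 points per 100 kb, and without windows near missing values it was 0.290. The excess thus turned with the placing of the windows. In limma, 0 of 89 steps differed between genotypes at an adjusted p under 0.05 (0.00424% of 23562 steps did), and 12 had an unadjusted p under 0.05 (13.5%, against 8.61%), 5 higher in KO (background 4.51%) and 7 lower (background 4.1%). The genotypes did not overlap in 35 steps (39.3%, against 39.5%), with KO above in 14 (background 19.1%) and below in 21 (background 20.3%). Leaving out KO replicate 1 or KO replicate 2 gave 8 called steps each (8.99%), against 4.13% and 4.38% of all steps in those fits.

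The steepest climb of each range, by the mean of the 4 libraries, was then taken. On chromosome 4, polarity climbed between the windows at 145100001 and 145200001 by 36.6 and 29.7 points in WT and by 41.8 and 30.6 points in KO. The spread of the genotypes overlapped (difference 3.01 points, SE 5.69; limma adjusted p = 0.921). These windows hold the lipid transfer gene Vps13d and the TNF receptor genes Tnfrsf1b and Tnfrsf8, before the first zinc finger gene. On chromosome 12, the climb between 21300001 and 21400001 was 27.6 and 20.2 points for the WT pair and 37.5 and 26.5 for the KO pair (limma adjusted p = 0.718). This interval holds Cpsf3, Iah1, Adam17 and Ywhaq, where Cpsf3 encodes the nuclease that cleaves pre-mRNA for polyadenylation. On chromosome 2, the climb between 175000001 and 175100001, at the edge of the longest gap, was 19.4 and 7.42 points for the WT pair and 23.7 and 25.2 for the KO pair (limma adjusted p = 0.607).

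The largest climb on chromosome 13 was the least reproducible between WT libraries. Between 62000001 and 62100001, over Gm3325 and Zfp808, the step was 22.4 and -0.846 points for the WT pair and 35.0 and 41.7 for the KO pair. WT replicate 2 was flat where the other libraries climbed (difference 27.5 points, SE 6.93; limma adjusted p = 0.391). The steepest fall of each range was taken likewise. It was -19.9 and -15.0 points for the WT pair and -21.3 and -17.5 for the KO pair at 64700001 on chromosome 13, where the windows overlap Cntnap3, a gene of the contactin-associated protein family. On chromosome 4, at 145500001 over Zfp990 and Zfp980, it was -20.0 and -15.1 points for the WT pair and -23.7 and -13.1 for the KO pair. On chromosome 2, at 174800001, the step was 4.35 and -2.45 points for the WT pair and -5.51 and -10.2 for the KO pair, so that WT replicate 1 rose there. On chromosome 12, at 19600001 over Gm9257, it was -16.7 and -19.3 points for the WT pair and -23.6 and -24.1 for the KO pair (limma adjusted p = 0.784). The 4-library mean crossed 0 upwards in 16 steps of the ranges and downwards in 12.

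The zinc finger genes of chromosome 13 could be followed gene by gene, because all their windows had values. From Zfp455 to Zfp748, polarity averaged over the windows of each gene was negative at the first genes and positive at the last. At Zfp457 it was -20.2 and -16.7 points for the WT pair and -23.1 and -19.8 for the KO pair. At Zfp456 it was -11.2 and -11.4 points for the WT pair and -15.9 and -9.93 for the KO pair. It reached 12.7 and 8.41 points for the WT pair and 14.0 and 9.90 for the KO pair at Zfp748. The libraries of the genotypes overlapped at each of these 3 genes. Further on it was lower again, with 3.35 and 4.15 points for the WT pair and 8.78 and 8.86 for the KO pair at Zfp729a and -1.04 and 3.47 points for the WT pair and 4.75 and 10.6 for the KO pair at Zfp738. Neighbouring genes share windows, so their values are not independent.

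Of the 29 zinc finger genes on chromosome 13, 12 had both KO means above both WT means, 6 had both below, and the others overlapped. Among all 20227 autosomal protein-coding genes with values, 24.2% were above and 22.9% below by the same rule. On chromosome 4, 4 of 17 zinc finger genes were above and 4 below. Gene means were not tested. Both KO values were lower at Zfp874b, with 8.25 and 6.80 points for the WT pair and 4.87 and 0.521 for the KO pair. At Rsl1, which encodes a regulator of sex-limited liver genes, polarity was -13.5 and -5.07 points for the WT pair and -0.391 and -2.64 for the KO pair. At Zfp708, which encodes a repressor of RMER19B retroelements, it was -2.48 and -0.226 points for the WT pair and 2.89 and 4.64 for the KO pair. Zfp85 had 1.36 and 1.71 points for the WT pair and 5.21 and 12.01 for the KO pair. At Rsl1, Zfp708 and Zfp85 both KO values lay above both WT values. Zfp369, a gene also known as Nrif2 that lies apart from the array, had -17.5 and -16.8 points for the WT pair and -27.8 and -27.9 for the KO pair, so that both KO values were below both WT values. Zfp457, Zfp456, Zfp748, Zfp874b, Rsl1, Zfp708, Zfp85 and Zfp369 were chosen after their values were seen.

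**Figure D4:**
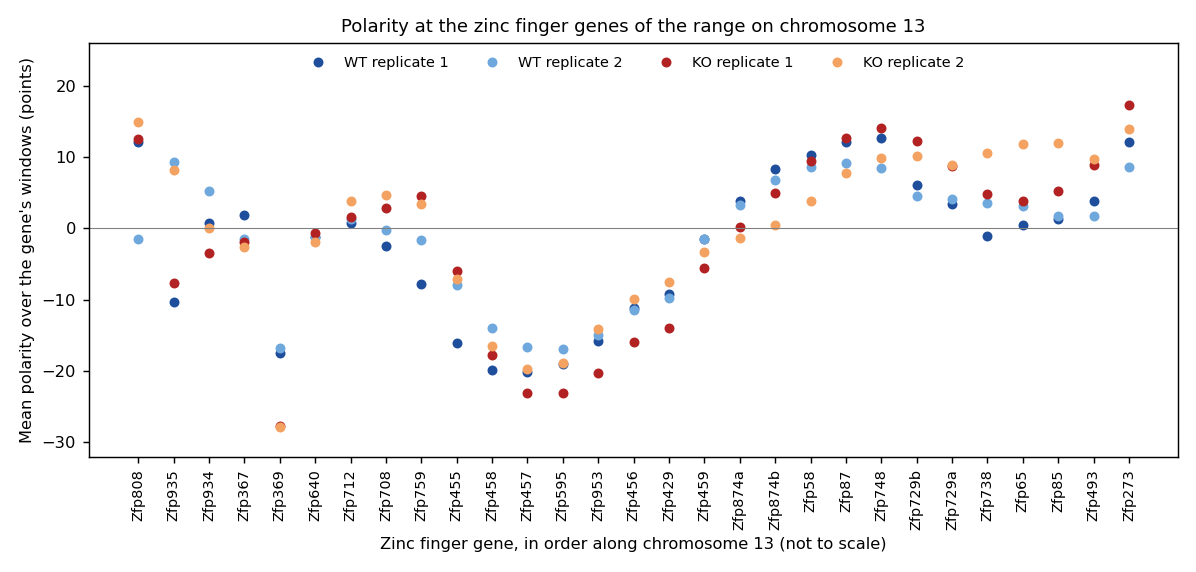
Points give the mean polarity over the windows of each of the 29 zinc finger genes on chromosome 13, in each library, in gene order. Values lie between -23.1 and -16.7 points at Zfp457 and between 8.41 and 14.0 points at Zfp748.

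Of the 9 zinc finger genes with 4 values in some but not all of their windows, KO replicate 2 had the opposite sign to all other libraries at 2, Zfp600 and Zfp987, and WT replicate 2 at 2 others, Rex2 and Zfp534. At Zfp600 on chromosome 4, over the 3 windows with 4 values, mean polarity was 1.43 and 11.8 points in WT, 20.1 in the first KO library and -28.7 in the second. At Zfp987 it was 14.9 and 12.6 points in WT, 17.8 in the first KO library and -18.4 in the second. The 3 other libraries were positive at both genes. Rex2, another of the 9, had means of 0.633 and -0.288 points for the WT pair and 2.02 and 1.26 for the KO pair, which average windows of opposite sign. In WT replicate 2 its windows had -12.6 points at 146900001 and 12.8 points at 147000001, and in KO replicate 1 they had -9.42 and 12.5 points. At the far end of that range, Zfp933 had -17.9 and -13.8 points for the WT pair and -19.9 and -18.2 for the KO pair. On chromosome 2, Zfp971 had 17.1 and 7.50 points for the WT pair and 23.0 and 18.1 for the KO pair. These genes were chosen after their values were seen.

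Replicate agreement was lower in the ranges than in the rest of the autosomes, and close to that of the 2 Mb flanks. Replicate differences had an SD of 6.20 points for WT and 9.56 points for KO over the 105 windows, against 5.04 and 8.60 points in the rest of the autosomes. Replicates had the same sign in 81.9% of windows in WT and 80.0% in KO, against 88.9% and 85.8%. Pearson's r over windows was 0.882 in WT and 0.838 in KO, against 0.941 and 0.912. In the flanks the SD was 7.08 points for WT and 9.49 for KO, r was 0.873 and 0.847, and signs were the same in 84.9% and 78.9% of 152 windows. There is a single pair per genotype and windows share their libraries, so no test was made. By range, r between WT replicates was 0.918 on chromosome 2, 0.910 on chromosome 4, 0.942 on chromosome 12 and 0.827 on chromosome 13. Between KO replicates it was 0.925, 0.766, 0.821 and 0.855 in the same order. On chromosome 2 these values rest on 10 windows.

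**Figure D5:**
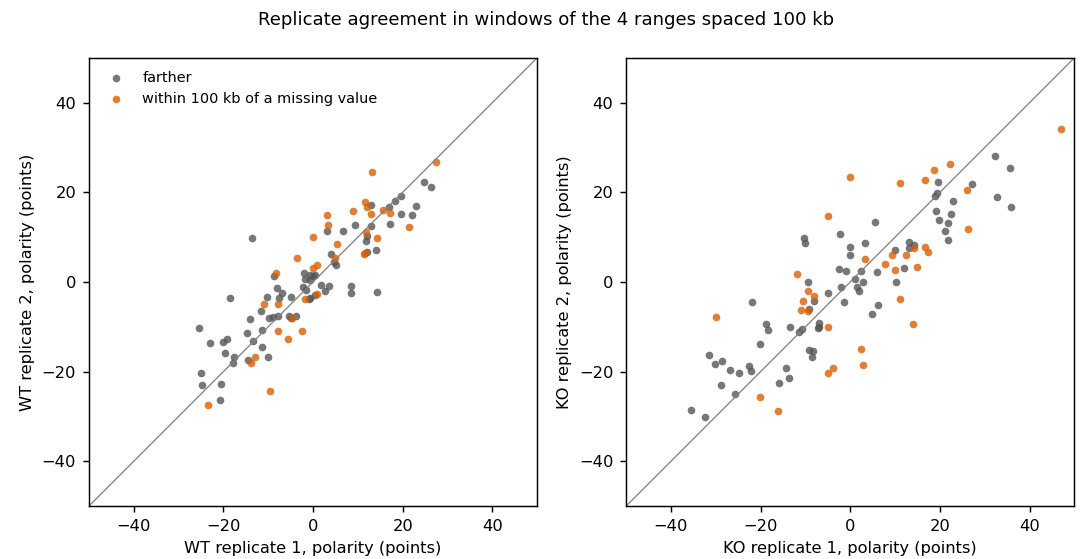
Each point is a window of the ranges, with the polarity in points of replicate 1 on the horizontal axis and of replicate 2 on the vertical axis, for WT on the left and KO on the right. Windows within 100 kb of a missing value scatter more widely about the line of equality in KO (r = 0.702) than windows farther away (r = 0.903).

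Nearness to a gap went with poorer agreement in KO. In the 34 windows within 100 kb of a window that lacks a value in some library, the SD of the KO replicate difference was 12.1 points, against 8.02 points in the 71 windows farther away. For WT replicates the values were 6.54 and 6.08 points. In the rest of the autosomes, windows near a gap differed by 9.61 (WT) and 14.0 points (KO), and windows farther away by 4.98 and 8.54 points. The SD of the WT replicate difference away from gaps was thus higher in the ranges and that of the KO replicate difference lower, and neither was tested. The WT disagreement on chromosome 13 included the window at 62400001 to 62500000 over Zfp935, where no window near it lacked a value. Polarity there was -13.6 points in WT replicate 1 and 9.81 points in WT replicate 2, with -10 and 8.70 points in KO replicates 1 and 2. Replicates 1 and 2 thus had opposite signs in both genotypes.

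Repeated values were also counted. Overlapping windows 25 kb apart carried exactly the same deposited value, with no tolerance, in 2.88% and 2.30% of pairs in WT and 2.88% and 3.55% in KO within the ranges. In the rest of the autosomes, the shares were 0.165% and 0.199% in WT and 0.309% and 0.500% in KO. An example, chosen after its values were seen, is the pair of windows at 146700001 and 146725001 on chromosome 4, where KO replicate 1 had 0 points and KO replicate 2 had 23.3 points in both.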

How the data were processed

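TrAEL-seq libraries of 2 WT and 2 Snf2h KO cultures were compared. The deposited table gives a signed score per window and library, the strand imbalance in percentage points, for 100 kb windows every 25 kb. The column names record alignment by bowtie2 to GRCm38 plus rRNA, and deduplication. The submitters' processing notes name Trim Galore 0.6.5 and Bowtie2 2.4.1. The formula, the positive strand and the minimum number of reads are not given in the sources used here. Depth is unknown, so no interval or detection floor was computed, and the windows without a value are the only measure of coverage.

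Windows were kept if they were of full length, on the 19 autosomes and with 4 values. Windows spaced 100 kb entered limma 3.58.1 (R 4.3.3; lmFit, eBayes, Benjamini-Hochberg, threshold 0.05), and steps between them likewise. Both fits were tested on simulated data. Genotypes were compared by exact two-sided permutation of library values, and ranges with the rest by flipping signs over the 4 libraries. Python 3.11.15, numpy 2.4.6, pandas 2.3.3 and matplotlib 3.10.9 were used. Windows to be named were, per range, those with the largest difference without overlap between genotypes, the largest rise and fall, the longest gap and any window past the threshold, with their coding genes. The regions are defined by position with no measured value in their rule, but they, the gene rule and the tests were chosen with earlier results of these data known. Protein sequences were not used here, so KRAB domains and fingers were not counted. For WT replicate 2, label and column name give different indexes.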

Additional observations from a re-analysis of the deposited data

How the results depend on the processing

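Over all ranges together, every alternative run kept the direction of the difference in missing windows (20.5 windows on windows spaced 100 kb; 66.5 to 81.5 with a library left out; 28 without chromosome 12, an alternative added after seeing the data), of the difference in SD of polarity (2.16 to 4.80 points with a library left out), and of the lower share of missing windows over zinc finger genes (-10.8 percentage points for any coding gene, also added later). Defining zinc finger genes by protein was not run. Replicate numbers could not be shown to pair the libraries: deviations of same-numbered libraries correlated at 0.124 over the 105 windows and at 0.241 over all 23672. With the replicate number as a block, limma called 4 windows (2 higher and 2 lower in KO; 3.81%, against 2.66% of all windows) and 1 step (1.12%, against 0.327%), instead of 0. With a library left out, calls ranged from 0 to 16 windows (0.0296% to 20.2% of all windows) and from 0 to 8 steps (0.00849% to 4.38% of all steps); the cause was not tested beyond the smaller number of libraries.

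The difference in mean polarity kept its direction on chromosomes 2 and 13 under every alternative run, but not elsewhere. Over all ranges it was -0.108 points with windows starting 50 kb later and -0.250 to 0.634 with a library left out. On chromosome 12 it was -0.0336 with that grid, -0.773 without windows near missing values and -0.114 to 1.14 with a library left out, and on chromosome 4 -0.940 to 0.0911. The excess of median slope over the rest of the autosomes turned to -0.148 with windows starting 50 kb later. Standardising reversed the difference in SD to -0.00375, -0.00157 and -0.0747 SD on chromosomes 2, 4 and 12, and that in median slope to -0.0193, -5.62e-05 and -0.0596 SD. Median slope also reversed to -0.852 over 200 kb on chromosome 2, and to -2.11 with the later grid and -1.53 without windows near missing values on chromosome 4. With a library left out it ranged from -0.136 to 2.43 on chromosome 2 and from -3.57 to 4.38 on chromosome 12. For these values, the cause was not tested.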
